A study of Mus musculus with 36 samples.

Results

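Processed copies of ribosomal protein genes were followed across primordial germ cells (PGCs) and fetal gonads of mice exposed to intrauterine hyperglycemia (IUHG). The copies were chosen by name, as symbols that begin with Rpl or Rps and end in "-ps" with or without a number, and by level, as a mean of at least 5 TPM (a transcript level scaled to the same total in each library) in at least 1 of 10 PGC groups or 2 gonad groups. This kept 129 of 322 named copies, out of 61788 genes listed. TPM takes transcript length into account, so levels of different genes can be compared. The rule used these levels, so a copy kept through 1 high group had to be higher there than elsewhere, and counts over the copies describe them without supporting a general statement.

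The 36 bulk RNA-seq libraries formed 12 groups of 3. IUHG was induced with 120 mg/kg streptozotocin (STZ), which destroys insulin-producing cells, given to dams on day 3.5 of pregnancy, and dams with blood glucose above 14 mM on day 6.5 were included. Controls were fetuses of dams in the control group, and the labels give the genotype of all samples as WT. Gonads came from female fetuses of ICR mice at E13.5 (E for embryonic day), pooled from several pairs, and the labels call them ovary. PGCs were sorted as EGFP-positive cells from pooled fetuses sired by Oct4-EGFP males, at E12.5 (sex not determined) and at E13.5 and E16.5 from females and males separately, with a control and an IUHG group at each point. The gate therefore rests on a reporter of Oct4 (Pou5f1), itself one of the germ cell markers. The labels number the replicates as biological, but nothing used here ties them to separate litters, so p-values measure the spread between these libraries.

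Ribosomes are built from ribosomal RNA and many proteins, and the genes of those proteins are among the most strongly transcribed in any cell. Their spliced mRNAs have been copied back into the genome many times by reverse transcription. Such a copy has no introns and usually no promoter of its own, and many are annotated as pseudogenes. Because a recent copy is nearly identical to the mRNA of its parent, here the gene whose symbol precedes "-ps", a read from one can be assigned to the other.

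Of the 129 copies, 74 came from large-subunit genes and 55 from small-subunit genes. They had 48 parents, 14 of which had a single copy here, while Rpl31 had 7 and Rpl17, Rps15a and Rps2 had 6 each. In all, 111 copies reached 5 TPM in a PGC group, 86 in a gonad group and 68 in both. Only 43 did so in every one of the 10 PGC groups. The other 193 named copies stayed below 5 TPM, 126 of them below 1 TPM in every group and 11 listed at 0 in every library. Just outside the threshold were Rpsa-ps1 at 4.80 TPM and Rps6-ps1 at 4.88 TPM, and just inside were Rpl7a-ps7 at 5.02 TPM and Rps19-ps7 at 5.03 TPM.

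**Figure D1:**
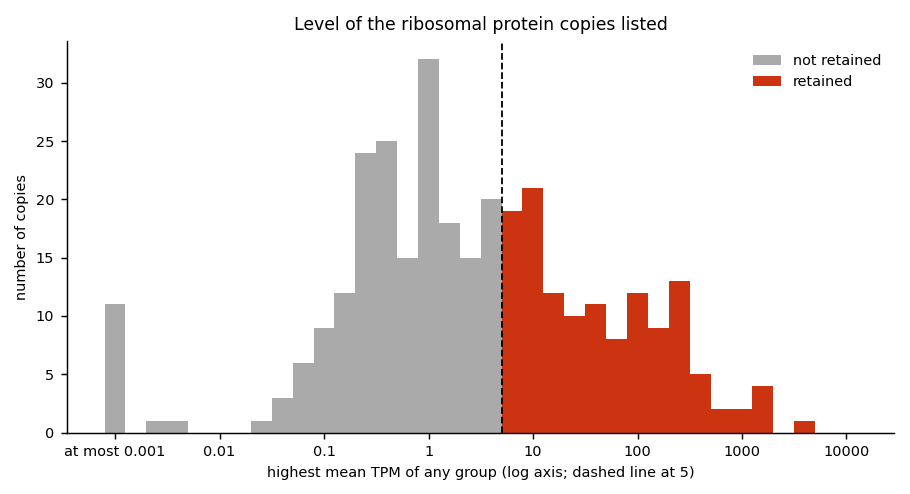
Number of named copies (vertical axis) by their highest mean TPM in any of the 12 groups (horizontal log axis), with values at or below 0.001 in the first bar. The 129 copies retained lie to the right of the dashed line at 5 TPM, and the other 193 to its left.

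The sequences were read from the NCBIM37 reference through the gene identifiers, since no genome of the files' own coordinates was used. Of the 129 copies, 97 were matched and 95 aligned to the coding transcript of their parent. The matched copies had a median length of 521 bases, and 94 had 1 exon. Their median identity to the parent mRNA was 98.96% (quartiles 98.2% and 99.7%), with a median of 4 mismatches and a longest identical run of 209 bases. The 105 matched copies below the threshold had a median identity of 93.2% and 27 mismatches. Of all stretches of 100 bases in a retained copy, the median share found letter for letter in the parent mRNA was 35.3%, and 29.9% of stretches occurred once in the genome and in no coding transcript. For 36 of the 97 copies no stretch of 100 bases was their own in that sense. The coding transcripts included those of copies annotated as protein coding, 26 of those matched, so neither value measures shared sequence alone. All stretches of 100 bases in Rpl10a-ps2 occurred once in the genome and none in the Rpl10a mRNA, yet none counted as its own.

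**Figure D2:**
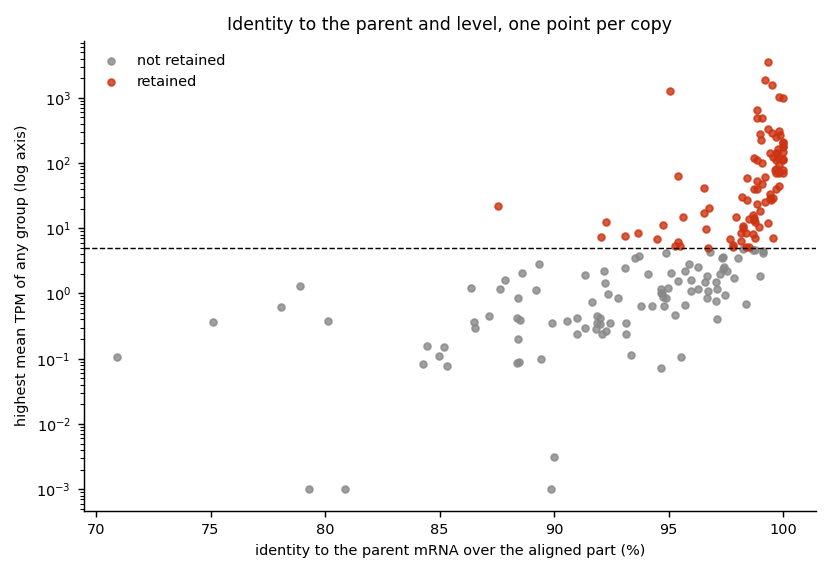
Identity of each copy to its parent mRNA in percent (horizontal axis) against its highest mean TPM in any group (vertical log axis, zeros drawn at 0.001), one point per copy with an aligned sequence. The dashed line is at 5 TPM. Most retained copies lie above 98% identity, and the copies not retained spread down to about 71%.

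Sequences of 5 called copies are shown because 4 of them differ from the parent at few bases, whereas Rps15a-ps8 differs at many. Capitals mark the bases that differ from the parent mRNA, and each run holds up to 200 bases of the NCBIM37 sequence on the copy's own strand, from the stretch with the most differences. Rps2-ps13 lies at chrX:50251765-50252646 (plus strand), and bases 5 to 204 of 882 are printed beside the same bases of the Rps2 mRNA, in which capitals mark those sites. Rps13-ps1 lies at chr8:89571619-89572074 (plus strand, bases 230 to 429 of 456). Rps15a-ps7 lies at chr2:152011027-152011418 (minus strand, bases 1 to 200 of 392), Rps15a-ps8 at chr4:53803942-53804328 (minus strand, bases 1 to 200 of 387) and Rpl15-ps6 at chr15:52309169-52309783 (minus strand, bases 3 to 202 of 615).
Rps2-ps13: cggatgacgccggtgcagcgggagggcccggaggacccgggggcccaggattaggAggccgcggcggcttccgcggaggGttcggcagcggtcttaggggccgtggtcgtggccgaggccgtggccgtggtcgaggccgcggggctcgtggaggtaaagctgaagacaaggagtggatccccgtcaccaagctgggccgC
Rps2: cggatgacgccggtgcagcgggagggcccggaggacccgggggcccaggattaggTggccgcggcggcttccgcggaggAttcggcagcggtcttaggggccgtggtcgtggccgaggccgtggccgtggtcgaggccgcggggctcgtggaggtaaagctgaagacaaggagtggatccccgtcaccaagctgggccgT
Rps13-ps1: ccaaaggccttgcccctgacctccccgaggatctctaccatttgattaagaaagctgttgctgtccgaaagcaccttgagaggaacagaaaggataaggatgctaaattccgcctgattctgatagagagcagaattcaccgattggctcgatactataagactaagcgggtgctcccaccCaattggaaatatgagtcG
Rps15a-ps7: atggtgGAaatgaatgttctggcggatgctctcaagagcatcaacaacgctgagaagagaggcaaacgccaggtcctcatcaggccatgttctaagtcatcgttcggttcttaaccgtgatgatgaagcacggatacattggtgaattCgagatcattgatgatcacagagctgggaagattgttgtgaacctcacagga
Rps15a-ps8: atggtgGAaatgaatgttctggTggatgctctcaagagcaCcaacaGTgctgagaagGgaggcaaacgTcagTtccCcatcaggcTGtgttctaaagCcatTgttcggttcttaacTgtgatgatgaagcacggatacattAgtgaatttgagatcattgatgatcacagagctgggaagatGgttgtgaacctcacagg
Rpl15-ps6: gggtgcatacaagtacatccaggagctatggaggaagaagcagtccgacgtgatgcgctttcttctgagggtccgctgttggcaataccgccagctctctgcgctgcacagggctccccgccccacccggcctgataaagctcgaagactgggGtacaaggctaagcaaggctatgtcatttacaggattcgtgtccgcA

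Counted from base 1 of the copy, with the parent base first, Rps2-ps13 differed from Rps2 by T60A, A84G, T204C, G300A, C444T, C453A and T756C. Rps13-ps1 differed from Rps13 by T411C and A429G only. Rpl15-ps6 differed from Rpl15 by A156G and C202A only. Rps15a-ps7 differed from Rps15a by C7G, G8A, T149C and C361G, and it lacked 1 base of the parent after base 95. Rps15a-ps8, by contrast, held 30 mismatches over 387 bases, and each of its stretches of 100 bases occurred once in the genome and in no coding transcript. The reference is not the ICR or Oct4-EGFP mice of this study, so variants of their genomes were not tested.

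Aligned bases ranged from 3.25 to 8.32 gigabases in PGC libraries and from 3.89 to 4.95 gigabases in gonad libraries. In PGCs the 6 germ cell markers (Ddx4, Dazl, Pou5f1, Dppa3, Mael, Dnd1) were all at a mean of at least 1 TPM in every group, and their sum was 2619 to 9612 TPM. The sum of 9 gonadal somatic markers was 1.23 to 37.0 TPM in PGCs and 840 to 989 TPM in gonads, that of 3 endothelial markers 5.23 to 209 TPM and 182 to 222 TPM, and that of 4 blood markers 0.0629 to 461 TPM and 4943 to 9622 TPM. In PGC groups 0 to 7 of the 9 somatic, 1 or 2 of the 3 endothelial and 0 to 3 of the 4 blood markers had a mean of at least 1 TPM. In gonads all of them did, so the sums in PGCs rest on fewer markers. In bulk libraries fewer cells of a type and less RNA per cell cannot be told apart. The 79 canonical ribosomal protein genes summed to 69050 to 170600 TPM in PGC libraries, and the lowest was IUHG replicate 3 of E13.5 females, followed by the 6 libraries of E16.5 females.

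The levels listed for the copies were low next to those of their parents in PGCs. Per library the 129 copies summed to 1330 to 4163 TPM, which was 1.70% to 3.14% of copies and canonical genes together. In gonads the same share was 14.5% to 17.5%. The PGC and gonad tables were normalised separately, and the methods name different aligners for them, so this difference between tables has no test. For the 111 copies that reached 5 TPM in PGCs, the mean level was a median of 0.792% of the parent level (quartiles 0.357% and 2.65%), and 1 of them, Rps15a-ps7, exceeded 20% of its parent. Per the paper's methods only unique reads were kept in PGCs, so reads that match a copy and its parent equally may be missing. How far this lowered the listed levels was not tested.

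The strongest copies in PGCs were Rps2-ps13, with 181 TPM over the 10 group means, Rps18-ps6 with 165 TPM, Rpl14-ps1 with 155 TPM, Rps24-ps3 with 137 TPM, Rps18-ps4 with 113 TPM, Rpl34-ps1 with 96.6 TPM, Rpl19-ps11 with 86.8 TPM and Rpl10-ps3 with 80.3 TPM. The reference sequence of Rpl10-ps3 is identical to the Rpl10 mRNA over all 728 bases, so its level cannot be told apart from reads of Rpl10 by sequence. In gonads they were Rpsa-ps10 with 2319 TPM, Rps2-ps13 with 1699 TPM, Rps7-ps3 with 1667 TPM, Rpl34-ps1 with 1539 TPM and Rps18-ps6 with 1281 TPM. Rps2, Rps7, Rps13, Rps15a, Rps18, Rps24, Rps26 and Rpsa are proteins of the small subunit, and Rpl10, Rpl14, Rpl15, Rpl19, Rpl31 and Rpl34 of the large subunit.

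Between PGC groups the copies varied more than their parents in the extreme. In the 109 of 111 copies whose lowest group mean was above 0, the highest group mean over the lowest was a median of 4.38 (quartiles 3.31 and 9.94), while for their 48 parents the median was 3.03 and the highest 16.7. In 14 of the 109 the ratio passed 20, and among them it was largest for Rps2-ps13, at 894, from 489 TPM in IUHG male PGCs at E13.5 to 0.547 TPM in IUHG female PGCs at E16.5, where Rps2 itself varied 4.22-fold. Rpl31-ps3 and Rps15a-ps8 were listed at 0 in every library of a group and have no ratio, with highest group means of 11.3 and 12.4 TPM. These ratios use the same values as the choice of copies and carry no test.

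The first comparison asked which copies IUHG changed at each stage and sex. A copy was called in PGCs when it moved by more than 1 on the log2 scale, in either direction, with an adjusted p below 0.01 (limma on log2(TPM + 1), Benjamini-Hochberg over all genes tested). In gonads the bounds were 1 or more on the log2 scale and an adjusted p below 0.05. At E12.5 1 of 119 copies tested was called, at E13.5 0 of 119 in females and 9 of 120 in males, at E16.5 4 of 113 in females and 8 of 117 in males, and in gonads 1 of 111. Among all genes tested the share called was 0.247% at E12.5, 0.515% in females and 3.93% in males at E13.5, 0.742% in females and 0.201% in males at E16.5, and 0.622% in gonads. Among tested genes with a mean of at least 5 TPM in any of the 12 groups it was 0.251%, 0.599%, 3.94%, 0.931%, 0.261% and 0.598% in the same order. Over the copies it was 0.84%, 0%, 7.5%, 3.54%, 6.84% and 0.901% in the same order. In E13.5 females, where limma called no copy, 4 of 119 had an unadjusted p under 0.05, or 3.36%, against 23.4% of all genes tested. The same share was 29.4% against 15.7% at E12.5 and 23.3% against 43.9% in E13.5 males. It was 12.4% against 22.8% in E16.5 females and 13.7% against 23.9% in E16.5 males. The counts depended on single libraries. At E12.5 the count was 2 without IUHG replicate 2 and 3 without IUHG replicate 3, in E13.5 females 3 without IUHG replicate 3, and in E13.5 males 5 without IUHG replicate 1. In E16.5 females it was 1, the call of Rps2-ps13, without control replicate 1, 2 or 3, and 2 without IUHG replicate 3. In E16.5 males it was 4 to 6 whichever library was left out, with 4 without control replicate 2 or IUHG replicate 3 and 5 without control replicate 3. In gonads it was 0 without control replicate 1 or 2 and 4 without control replicate 3.

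The calls in PGCs came to 22 on 14 different copies, and 11 of the 15 copies called anywhere were from small-subunit genes, as were 55 of all 129 copies, with no test of that difference. Of the 15 copies, 10 had a matched sequence, and 3 of those had no stretch of 100 bases of their own in the sense above. Rps2-ps13, Rps13-ps1 and Rps15a-ps7 were each called in 3 comparisons, Rpsa-ps10 and Rps15a-ps8 in 2, and the other 9 in 1. The parent of a called copy was called in no such comparison, and its absolute log2 difference in PGCs was at most 0.52. None of the 79 canonical genes was called in any PGC comparison by limma, while 9, 2, 31, 38 and 22 of them had an unadjusted p under 0.05 in the order above. These were 11.4%, 2.53%, 39.2%, 48.1% and 27.8%, against 15.7%, 23.4%, 43.9%, 22.8% and 23.9% of all genes tested. Of other copies named with "-ps" and a mean of at least 5 TPM, 1 of 126, 1 of 132, 6 of 129, 3 of 131 and 1 of 136 were called. The median log2 difference of the copies was -0.26 at E12.5, -0.11 in females and 0.04 in males at E13.5, and -0.06 and -0.01 at E16.5, beside 0.04, 0.14, -0.02, 0.04 and 0.04 over all genes tested.

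**Figure D3:**
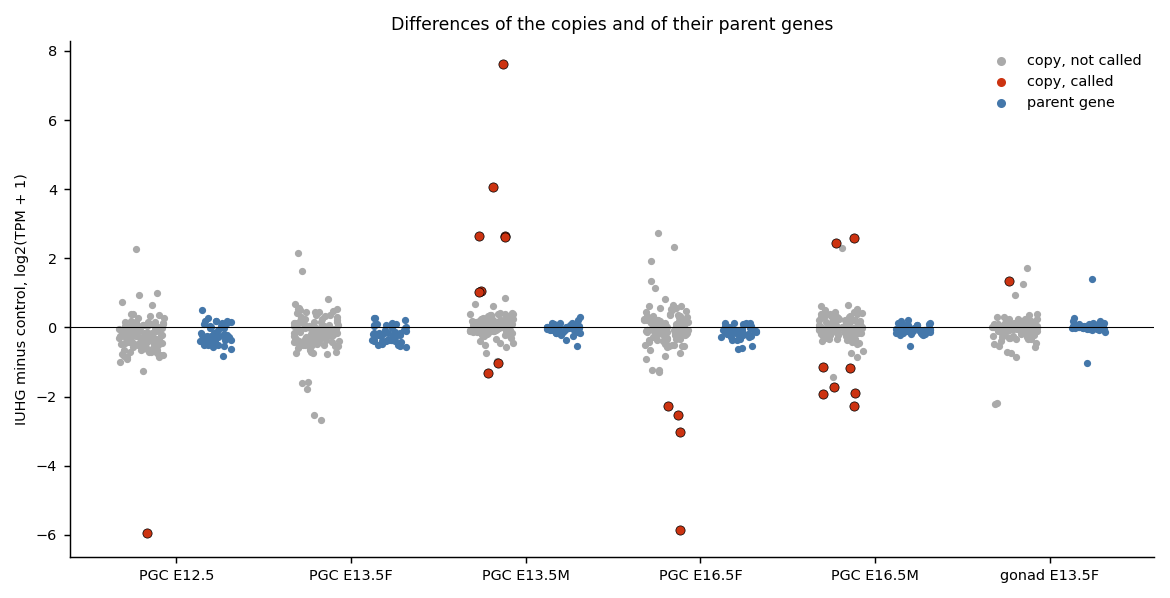
Difference between IUHG and control (vertical axis, log2(TPM + 1), mean of 3 libraries each) for each tested copy and each parent gene in the 6 comparisons (horizontal axis). Called copies reach from -5.95 to 7.62. Over all 79 canonical genes, not only the parents drawn, the differences lie between -0.82 and 0.52 in the 5 PGC comparisons.

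Rps2-ps13, the copy of the small-subunit gene Rps2 on the X chromosome (chrX:51987465-51988346, plus strand, mm39), changed in 3 of 5 PGC comparisons and in opposite directions. At E12.5 the control libraries stood at 272, 258 and 269 TPM and the IUHG libraries at 3.13, 2.32 and 4.82 TPM. In male PGCs at E13.5 the controls stood at 1.48, 1.65 and 1.36 TPM and the IUHG libraries at 507, 466 and 494 TPM. In female PGCs at E16.5 the controls stood at 94.7, 78.8 and 92.2 TPM and the IUHG libraries at 0.709, 0.484 and 0.448 TPM. The groups did not overlap in any of these, and the spread within each group was small beside the gap.

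The log2 fold change of Rps2-ps13 was -5.95 (SE 0.18, adjusted p = 4.22e-07, limma) at E12.5, 7.62 (SE 0.07, adjusted p = 5.15e-12, limma) in E13.5 males and -5.86 (SE 0.22, adjusted p = 7.41e-06, limma) in E16.5 females. It was high in both groups elsewhere. In E13.5 females it was 301, 300 and 399 TPM in controls and 555, 427 and 275 TPM under IUHG, and in E16.5 males 98.1, 75.1 and 78.2 TPM in controls and 129, 145 and 112 TPM under IUHG. Low did not mean absent, since the aligned bases equalled 26.9 to 35.1 reads of 150 bases in E13.5 male controls and 3.51 to 8.61 in IUHG E16.5 females.

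Rps2 itself was at 1228 TPM in control and 1788 TPM in IUHG PGCs at E12.5, at 1613 and 1244 TPM in E13.5 males, and at 511 and 426 TPM in E16.5 females. Its log2 fold change in E13.5 males was -0.37 (adjusted p = 0.000192, limma), under the fold threshold, and in the other 2 its adjusted p was 0.124 and 0.0586. The sum of Rps2 and Rps2-ps13 was 1614 ± 58.8 TPM in controls and 1733 ± 63.0 TPM under IUHG in E13.5 males (SD, n = 3). At E12.5 it was 1494 ± 39.4 and 1791 ± 400 TPM, and in E16.5 females 599 ± 6.33 and 426 ± 13.2 TPM. Reads of one that were counted for the other were not tested for.

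**Figure D4:**
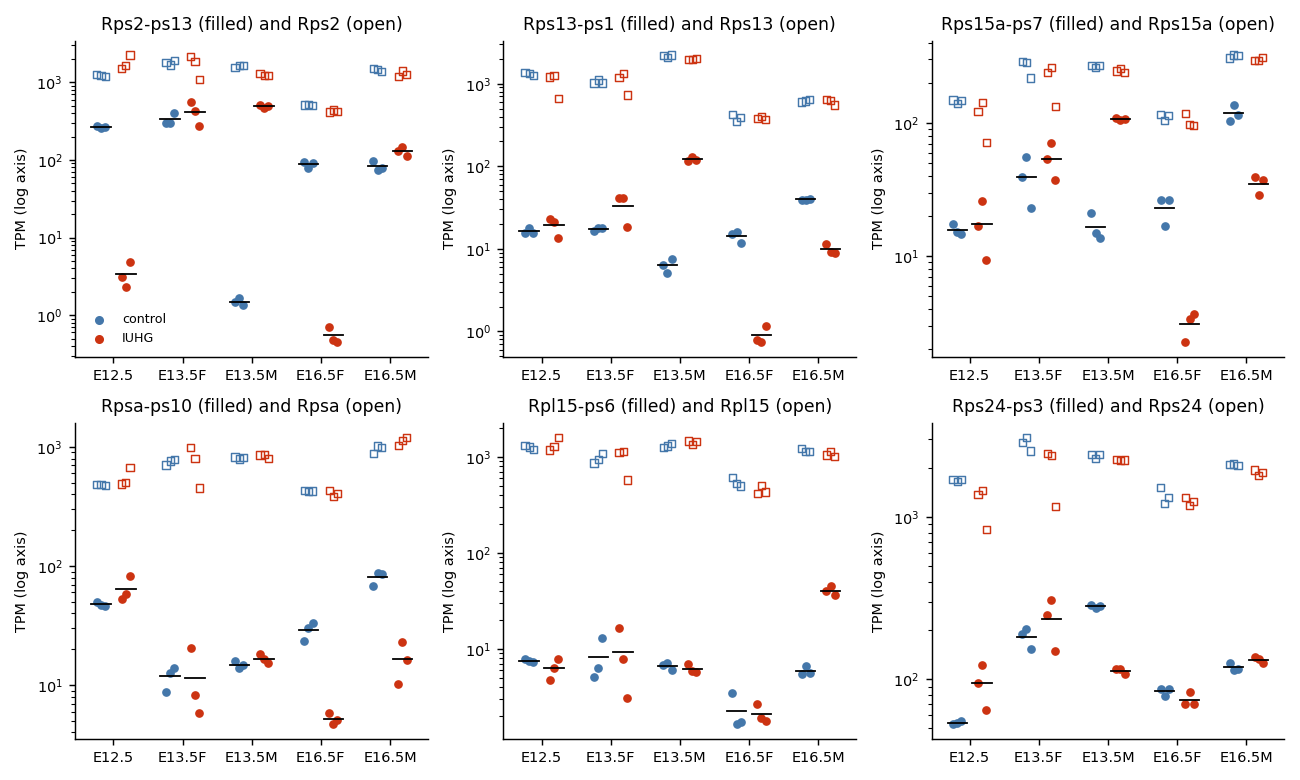
TPM on log axes of 6 copies (filled) and their parents (open) in the 30 PGC libraries, with control in blue, IUHG in red and a bar at the mean of the copy. Rps2-ps13 lies between 0.448 and 555 TPM, and the other copies shift by group while their parents stay close between control and IUHG.

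Rps13-ps1, from the small-subunit gene Rps13, followed the same directions in E13.5 males and E16.5 females. In male PGCs at E13.5 it stood at 6.43, 5.12 and 7.64 TPM in controls and 117, 128 and 121 TPM under IUHG (log2 fold change 4.07, SE 0.11, adjusted p = 3.51e-08, limma). In E16.5 males it stood at 39.6, 39.3 and 40.2 TPM in controls and 11.6, 9.08 and 8.96 TPM under IUHG (log2 fold change -1.91, adjusted p = 0.000129, limma). In E16.5 females it was 15.1, 16.2 and 11.9 TPM in controls and 0.781, 0.74 and 1.16 TPM under IUHG (log2 fold change -3.02, SE 0.30, adjusted p = 0.00135, limma). The groups were apart in all 3 comparisons, and Rps13 was close, at 2160 and 1979 TPM, 620 and 606 TPM, and 388 and 384 TPM. Without control replicate 1, 2 or 3 the E16.5 female adjusted p was 0.0183, 0.0284 or 0.0208.

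Called copies of Rps15a, another small-subunit gene, moved in the same directions as Rps13-ps1. Only Rps15a-ps7 was called in the same 3 comparisons, and Rps15a-ps3 and Rps15a-ps4 were called in no IUHG comparison. Rps15a-ps7 was at 20.9, 15.0 and 13.7 TPM in controls and 108, 105 and 106 TPM under IUHG in E13.5 males, at 26.3, 16.8 and 26.3 TPM and 2.26, 3.41 and 3.66 TPM in E16.5 females, and at 103, 135 and 116 TPM and 39.2, 28.9 and 37.2 TPM in E16.5 males. Its log2 fold changes were 2.64 (adjusted p = 1.03e-06, limma), -2.54 (adjusted p = 0.00241, limma) and -1.72 (adjusted p = 0.000603, limma). In each the 3 libraries of one group lay above all 3 of the other. The E16.5 female call was lost without any 1 of the control replicates.

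Rps15a-ps8, whose sequence sets it apart from the parent, was listed at 0, 0.307 and 0.0961 TPM in E13.5 male controls and at 4.44, 6.89 and 7.00 TPM under IUHG (log2 fold change 2.64, adjusted p = 1.36e-05, limma). In E16.5 males it was at 16.4, 11.2 and 9.73 TPM in controls and 2.86, 2.53 and 2.33 TPM under IUHG (log2 fold change -1.88, adjusted p = 0.00266, limma), and this call was lost without control replicate 2 or IUHG replicate 2 or 3 (adjusted p = 0.0213, 0.0164 and 0.0115, limma). In E16.5 females it was at 1.07, 1.58 and 1.39 TPM in controls and listed at 0 in all 3 IUHG libraries. Rps15a-ps6 rose in E13.5 males, from 17.4 to 37.0 TPM, and Rps15a-ps5 fell in E16.5 males, from 13.6 to 5.61 TPM. Rps15a-ps6 lies inside Nudcd3, a gene of the same strand with a mean of 48.3 TPM over the PGC groups. Rps15a stood at 267 and 247 TPM in control and IUHG E13.5 males and at 317 and 299 TPM in E16.5 males.

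Over the 10 PGC group means on the log2 scale, the copies most like Rps13-ps1 were Rps15a-ps7, with a Pearson r of 0.897, Rps15a-ps6 with 0.854 and Rpl7a-ps3 with 0.731. These points share libraries and scaling, and Rps13-ps1 was singled out after its values were seen. The group means of Rpl7a-ps3 in PGCs lay between 0.119 and 0.460 TPM, so its r rests on very low levels. Rps13-ps1 lies on chromosome 8, Rps15a-ps6 on 11, Rps15a-ps7 on 2 and Rpl7a-ps3 on 15, and the parents Rps13 and Rps15a lie 1.77 Mb apart on chromosome 7 (mm39). Around the called copies, 9 of 365 tests of genes within 1 Mb were calls, summed over 22 copies and comparisons in PGCs, and around their parents 7 of 519. Most of these calls were in E13.5 males, where 3.93% of all genes tested were called. The share over all genes was 0.247% at E12.5, 0.742% in E16.5 females and 0.201% in E16.5 males, so the pooled counts mix unlike shares. None was called near Rps2-ps13 at E12.5 or in E16.5 females (0 of 22 in each), nor near Rps13-ps1 in its 3 comparisons, and 2 of 16 were called near Rps2-ps13 in E13.5 males (1700013H16Rik and Etd). Near Rps13 and Rps15a no gene was called.

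Rpsa-ps10, a copy of the laminin receptor and small-subunit gene Rpsa, fell at E16.5 in both sexes. In females it was at 23.4, 30.3 and 33.0 TPM in controls and 5.79, 4.68 and 5.05 TPM under IUHG (log2 fold change -2.27, SE 0.23, adjusted p = 0.00136, limma). In males it was at 68.2, 88.2 and 85.1 TPM in controls and 10.2, 23.0 and 16.2 TPM under IUHG (log2 fold change -2.28, SE 0.24, adjusted p = 0.00267, limma). The female call was lost without any of the control replicates (adjusted p = 0.0106, 0.0284 and 0.0289, limma) or without IUHG replicate 3 (adjusted p = 0.0137, limma). Rpsa was at 426 and 407 TPM in females and at 961 and 1124 TPM in males.

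Rpl15-ps6 and Rpl15-ps2 rose in male PGCs at E16.5. Rpl15-ps6 went from 5.53, 6.71 and 5.57 TPM in controls to 40.1, 44.8 and 36.8 TPM under IUHG (log2 fold change 2.58, SE 0.12, adjusted p = 4.52e-05, limma), and Rpl15-ps2 from 4.76, 6.88 and 4.20 TPM to 35.5, 25.9 and 36.6 TPM (log2 fold change 2.43, SE 0.19, adjusted p = 0.000603, limma). The large-subunit gene Rpl15 stood at 1161 and 1067 TPM. Both copies were at most 16.7 TPM in every other PGC library. Rpl31-ps15 fell in the same comparison, from 14.9 to 6.10 TPM.

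Rps24-ps3, an X-linked copy of Rps24, fell in male PGCs at E13.5, from 288, 274 and 284 TPM to 116, 115 and 108 TPM (log2 fold change -1.31, SE 0.05, adjusted p = 1.75e-07, limma), with Rps24 at 2376 and 2240 TPM. Rps19-ps6 rose there from 54.2 to 111 TPM. Rpl21-ps8 fell from 13.4 to 6.14 TPM, with a log2 fold change of -1.02 just past the threshold, and its call was lost without control replicate 1 (-0.86), IUHG replicate 1 (-0.90) or IUHG replicate 2 (-0.97). Rps7-ps3 rose from 9.11, 0.607 and 0.652 TPM to 19.6, 12.6 and 20.7 TPM (log2 fold change 2.61, SE 0.59, adjusted p = 0.00812, limma), with control replicate 1 nearer to the IUHG libraries than to the other controls.

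Rps7-ps3 lies inside an unnamed gene of the same strand, ENSMUSG00000121769, which was at 81.3 TPM in controls and 149 TPM under IUHG in E13.5 males. Summed with it, the log2 difference was 0.97 in place of 2.61. Rps26-ps1 is likewise covered by ENSMUSG00000121644. Its levels in E16.5 females were 0.883, 0.376 and 0.267 TPM in controls and 7.88, 3.18 and 10.4 TPM under IUHG (log2 fold change 2.34, adjusted p = 0.0215, limma), and those of the covering gene 19.5 and 118 TPM. In E16.5 males they were 0.282, 2.37 and 2.02 TPM and 12.3, 10.5 and 8.99 TPM (adjusted p = 0.0104, limma), and the covering gene was at 22.6 and 70.3 TPM. In E13.5 females the order was the other way, at 24.4, 19.8 and 11.7 TPM in controls and 3.17, 5.79 and 0.196 TPM under IUHG (log2 fold change -2.55, adjusted p = 0.05, limma). Of the 129 copies, 57 overlap another listed gene in the PGC table and 25 one of the same strand, and how reads were divided between overlapping genes is not given in the sources used here.

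Rps18-ps4 and Rps18-ps6 overlap each other on opposite strands of chromosome 13, and in some libraries one was listed at 0 where the other was not. In female controls at E16.5, Rps18-ps6 was listed at 65.5, 0 and 182 TPM and Rps18-ps4 at 48.3, 83.7 and 0 TPM. Their sum was 114, 83.7 and 182 TPM. In E13.5 male controls the sum was 419 ± 14.3 TPM, beside 186 ± 30.0 TPM for Rps18-ps6 and 233 ± 33.8 TPM for Rps18-ps4 (SD, n = 3). That was the most even sum of the PGC groups. Under IUHG it was 240 ± 127 TPM in E13.5 females and 208 ± 83.6 TPM at E12.5. The coefficient of variation of the sum at E12.5 under IUHG was 40.2%, against 26.3% for Rps18-ps6 and 59.0% for Rps18-ps4. At E12.5 their differences pointed apart, at -1.27 for Rps18-ps6 and 2.26 for Rps18-ps4 on the log2 scale, and neither was called (adjusted p = 0.0103 and 0.0647, limma).

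A copy was counted as switched when it had a mean of at least 5 TPM in one group and under 1 TPM in the other, with no overlap of libraries. The bound of 5 TPM is the one by which the copies were chosen, so the counts are a description. This held at E12.5 for 0 of 119 copies, at E13.5 for 2 of 119 in females and 1 of 120 in males, at E16.5 for 3 of 113 in females and 0 of 117 in males, and in gonads for 0 of 111. Over all genes tested the shares were 0.0291%, 0.309%, 0.152%, 0.411%, 0.0191% and 0.0278% in the same order. Rps2-ps13 and Rps13-ps1 went off and Rps26-ps1 on in E16.5 females, and Rps15a-ps8 went on in E13.5 males. In E13.5 females Rps15a-ps4 went from 5.52 to 0.911 TPM (adjusted p = 0.0194, limma) and Rps2-ps9 from 0.546 to 7.59 TPM (adjusted p = 0.232, limma), where IUHG replicate 3 gave 20.2 TPM and the other 2 gave 1.06 and 1.47 TPM. Rps15a-ps4 lies inside ENSMUSG00000121669 and Rps2-ps9 overlaps ENSMUSG00000121850, both unnamed genes of the same strand. Those 2 genes had means of 3.03 and 0.813 TPM over the PGC groups. Libraries of the groups did not overlap for 32, 9, 24, 24 and 21 of the tested copies in the 5 PGC comparisons, or 26.9%, 7.56%, 20.0%, 21.2% and 17.9%, while over all genes tested the shares were 22.5%, 33.0%, 47.2%, 28.9% and 29.8%.

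Whether IUHG effects differed between sexes or stages was tested as an interaction (limma, adjusted p below 0.01 over all genes). Between the sexes 5 of 123 copies differed at E13.5, where 3.22% of all genes did, and 2 of 122 at E16.5, where 1.18% did. The 5 became 2 or 3 without any 1 control library or any 1 male IUHG library at E13.5. Between the stages 4 of 122 differed in females, where 1.93% of all genes did, and 11 of 123 in males, where 8.33% did. Rps2-ps13 was among them in all 4 tests.

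In E13.5 female gonads Rpsa-ps7 was called, from 72.4, 77.2 and 139 TPM in controls to 272, 279 and 169 TPM under IUHG (log2 fold change 1.34, SE 0.26, adjusted p = 0.0422, limma). The call was lost without control replicate 1 or 2 (adjusted p = 0.0824 and 0.124, limma) or IUHG replicate 1 or 2 (adjusted p = 0.137 and 0.136, limma). Rpsa-ps10 went from 719, 782 and 1836 TPM to 4494, 3957 and 2123 TPM, with no overlap and an adjusted p of 0.0546 (limma), while Rpsa went from 2671, 2602 and 2142 TPM to 937, 976 and 1969 TPM (log2 fold change -1.02, adjusted p = 0.0736, limma). In both groups, replicate 3 was the library in which Rpsa and Rpsa-ps10 were closest to each other. Groups did not overlap for 18 of 111 copies, or 16.2%, against 25.8% of all genes tested. Of the 79 canonical genes, Rpl26 and Rpl30 were called, and both rose. The 4 blood markers summed to 7789 to 9622 TPM in control and 4943 to 5889 TPM in IUHG gonads, and the 6 germ cell markers to 500 to 587 TPM and 660 to 817 TPM, and their part in these results was not tested.

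The other strong gonad copies showed no call. Rps2-ps13 was at 1314, 2021 and 1205 TPM in controls and 2074, 1799 and 1783 TPM under IUHG, and Rps2 at 921, 274 and 1079 TPM and 622, 673 and 728 TPM, so control replicate 2 held the least Rps2 and the most Rps2-ps13 of its group. The sum of both was 2271 ± 32.4 TPM in controls, with a coefficient of variation of 1.43% against 56.3% for Rps2 and 29.3% for Rps2-ps13. Under IUHG it was 2560 ± 119 TPM, with a coefficient of variation of 4.65% against 7.89% and 8.66%. For Rpsa and Rpsa-ps10 the sum was less even, at 3584 ± 341.5 TPM in controls (9.53%, against 11.6% and 56.4%) and 4819 ± 676.6 TPM under IUHG (14.0%, against 45.2% and 35.3%). Rps26-ps1 was at 505, 132 and 33.5 TPM in controls and 27.0, 29.8 and 27.1 TPM under IUHG. Rps7-ps3, Rpl34-ps1 and Rps18-ps6 ranged over 1571 to 1828 TPM, 1487 to 1645 TPM and 1190 to 1340 TPM.

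**Figure D5:**
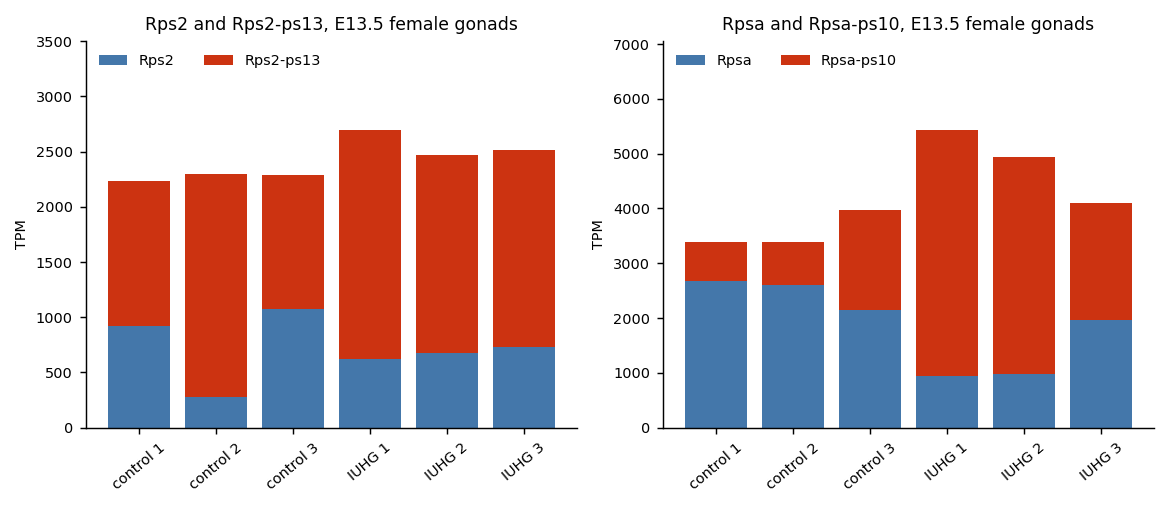
TPM of Rps2 with Rps2-ps13 and of Rpsa with Rpsa-ps10, stacked, in each of the 6 gonad libraries. For Rps2 the stacked control bars are even, at 2234 to 2295 TPM, while the split within them changes between libraries.

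Among controls, the sexes and stages were compared. Between female and male PGCs 26 of 119 copies were called at E13.5 (7 higher in females and 19 lower), where 29.8% of all genes tested were called (20.4% higher and 9.35% lower), and 45 of 122 at E16.5 (6 higher and 39 lower), where 50.9% were (22.9% and 28.0%). From E13.5 to E16.5, 38 of 121 copies were called in females (2 higher at E16.5 and 36 lower, against 28.2% of all genes, 18.4% and 9.79%) and 35 of 122 in males (12 and 23, against 51.0%, 38.3% and 12.7%). Lower levels with time and in females were shared by the canonical genes, with 0 higher and 23 lower in each sex over time, and 11 lower at E13.5 and 6 higher and 26 lower at E16.5 in females against males. With median-of-ratios scaling the splits were 3 and 33, 5 and 53, 1 and 42, and 9 and 44 copies higher and lower in the same order, and over all genes the share of calls that were higher moved from 68.6% to 49%, from 44.9% to 36.6%, from 65.2% to 51.3% and from 75.1% to 62.9%. The comparisons share control libraries with each other and with the IUHG comparisons.

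Individual copies moved in both directions. In male controls Rps2-ps13 went from 1.498 TPM at E13.5 to 83.8 TPM at E16.5, Rps13-ps1 from 6.397 to 39.7 TPM and Rpsa-ps10 from 14.8 to 80.5 TPM, all called, while Rps13 fell from 2160 to 620 TPM. Between the sexes at E13.5 Rps2-ps13 was at 333 TPM in females and 1.498 TPM in males (log2 fold change 7.05, SE 0.13, adjusted p = 5.28e-09, limma). Rps7-ps3 was at 42.1 TPM in E13.5 female controls and 0.753 TPM in E16.5 female controls (log2 fold change -4.53, adjusted p = 2.59e-06, limma). The gene that covers Rps7-ps3, ENSMUSG00000121769, was at 102 and 64.0 TPM in these groups, and the sum of both fell less, from 144 to 64.7 TPM. Between the sexes at E13.5 Rpl21-ps8 was lower in females, at 1.46 against 13.4 TPM, as were Rps2-ps5 at 1.25 against 6.07 TPM and Rpl18-ps1 at 7.57 against 17.4 TPM. In female controls Rpl18-ps1 then rose to 20.7 TPM and Rpsa-ps10 rose from 11.8 to 28.9 TPM by E16.5, while Rpl19-ps11 fell from 127 to 38.6 TPM. At E16.5 Rps18-ps5 was at 19.1 TPM in females and 49.8 TPM in males, and Rpl10-ps1 at 2.27 and 0.245 TPM, both called.

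Some copies were confined to male PGCs at E16.5 in these libraries, or low there. Rpl31-ps3 was at 16.0, 7.92 and 9.92 TPM in male controls and 5.36, 8.46 and 10.1 TPM under IUHG, and at most 0.518 TPM in every other PGC library. Rpl10-ps3, whose reference sequence is 100% identical to the Rpl10 mRNA, was at 5.40 TPM in male controls and 64.5 TPM in female controls at E16.5 (log2 fold change 3.37, adjusted p = 1.09e-06, limma), and X-linked Rpl10 stood at 165 and 1298 TPM in the same libraries. Rpl39-ps fell in males with age from 29.1 to 1.59 TPM, with Rpl39 from 635 to 74.8 TPM. Rps23-ps1 was at 5.57 TPM in male and 24.2 TPM in female controls at E16.5, with Rps23 at 258 and 1531 TPM.

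The ratio of each called copy to its parent was compared with an exact permutation test over the 6 libraries, two-sided. For all 23 calls the libraries separated completely, with an exact permutation p = 0.1, the smallest that 3 against 3 allows. The copies were chosen by their calls in these same libraries, so this outcome was likely in advance and adds no support to the calls. The difference in log2(copy + 1) less log2(parent + 1) ranged from -6.47 for Rps2-ps13 at E12.5 to 7.99 for Rps2-ps13 in E13.5 males.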

How the data were processed

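The deposited tables held StringTie coverage (signal), FPKM and TPM per gene. Per the paper's methods, the authors aligned gonad reads with HISAT2 and PGC reads with STAR, keeping unique reads in PGCs, and name mm9 for gonads and mm39 for PGCs. The labels list STAR, featureCounts and mm39 for all samples, and positions in the gonad table agreed best with GRCm38 (47.9% with the same start or end, against 1.61% for NCBIM37), so the gonad build is uncertain. TPM was used, FPKM was an alternative and coverage gave aligned bases. TPM values are not counts, so limma 3.58.1 in R 4.3.3 was run on log2(TPM + 1) (trend, two-sided, Benjamini-Hochberg), on genes with a mean of at least 1 TPM in a compared group, within each table. Fold changes understate the change of low genes. The step was tested on simulated data. Copies were aligned to parents with blastn 2.17.0. The copies and lists were chosen with earlier results of these data known. Named copies were the 8 highest in PGCs and 5 in gonads, up to 3 called in each direction per comparison by p, copies switched by IUHG, 2 on each side of the threshold, and parents. Other called copies were also given. The alternatives tried were leaving out each library, a replicate block, 1 fit over all PGC groups, scaling by the median of ratios, dropping the filter, adding 0.1 before the logarithm, and FPKM.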

Additional observations from a re-analysis of the deposited data

Results flagged for a closer look

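The IUHG effect of 22 copies and pairs of groups differed between sexes or stages by a limma interaction test (Benjamini-Hochberg adjusted p under 0.01 over all genes), given here as the first log2 effect minus the second. In E13.5 females minus males 5 of 123 copies differed, against 3.22% of all genes, and 2 or 3 did without any 1 control library or any 1 male IUHG library. The differences were -7.33 for Rps2-ps13 (adjusted p = 2.24e-08), -3.24 for Rps13-ps1, -2.57 for Rps15a-ps8, 1.62 for Rps24-ps3 and -2.14 for Rps15a-ps7 (adjusted p = 0.00633). In E13.5 minus E16.5 females 4 of 122 differed, against 1.93% of all genes. The differences were 6.14 for Rps2-ps13, 3.85 for Rps13-ps1, 3.04 for Rps15a-ps7 and -4.88 for Rps26-ps1, whose effect was -2.55 at E13.5 and 2.34 at E16.5.

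In E13.5 minus E16.5 males 11 of 123 differed, against 8.33% of all genes. The differences were 7.01 for Rps2-ps13, 5.98 for Rps13-ps1, 4.36 for Rps15a-ps7, -1.46 for Rps24-ps3, -2.67 for Rpl15-ps6, 4.52 for Rps15a-ps8, 1.78 for Rps15a-ps6, -2.38 for Rpl15-ps2, 2.44 for Rpsa-ps10, 1.99 for Rps15a-ps5 and -2.25 for Rps26-ps1. In E16.5 females minus males 2 of 122 differed, against 1.18% of all genes, by -6.47 for Rps2-ps13 and -2.63 for Rpl15-ps6.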

How the results depend on the processing

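Over 502 alternatives of named fold changes 468 kept direction and side of the threshold, 30 lost the call, 4 gained it and 0 reversed, and 184 of 184 copy-to-parent ratios kept direction. The ratios were of copies already called in the same libraries, so their count adds no support to the calls. The replicate numbers did not pair the libraries (correlations of deviations -0.085 to 0.124). With the replicate block the calls were 2 at E12.5, 1 in E13.5 females and 0 in gonads, in place of 1, 0 and 1. With all PGC groups in 1 fit they were 3 in E13.5 females and 8 in E16.5 females. With no filter they were 1 in E16.5 females, 2 in E16.5 males, 0 in gonads and 14 between control sexes at E13.5, and 2 effects differed between sexes at E13.5 and 2 between female stages. With median-of-ratios scaling the calls were 53 between male control stages, and 3 effects differed between sexes at E13.5. A threshold of 1 TPM kept 196 copies. Switched copies were 0 in E13.5 females with FPKM, and with a low bound of 2 TPM 2 in E13.5 males and 2 in E16.5 males. The share of stretches found in the parent was 58.35% at 50 bases and 18.48% at 150 bases, the latter chosen after seeing the data. The cause was not tested.

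Leaving out 1 library gave 1 to 3 calls at E12.5 (2 and 3 without IUHG replicates 2 and 3), 0 to 3 and 5 to 9 in E13.5 females and males (3 without female IUHG replicate 3, 5 without male IUHG replicate 1), 1 to 5 in E16.5 females (1 without any control replicate, 2 without IUHG replicate 3), 4 to 6 in E16.5 males (4, 5 and 4 without control replicate 2, control replicate 3 and IUHG replicate 3) and 0 to 4 in gonads (0 without control replicate 1 or 2, 4 without control replicate 3). Between controls the ranges were 17 to 26 for sex at E13.5 (17 without male replicate 2), 28 to 47 for sex at E16.5 (28 without male replicate 2), 29 to 34 and 31 to 37 for stage in females and males. Effects that differed were 2 to 6 between sexes at E13.5 (2 or 3 without any 1 control library or any male IUHG library), 2 to 3 between sexes at E16.5, and 4 to 6 and 10 to 12 between stages in females and males.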
